A study of Mus musculus with 10 samples.

Results

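The genes described here are the 8 subunits of mouse condensin, Smc2, Smc4, Ncapd2, Ncapg, Ncaph, Ncapd3, Ncapg2 and Ncaph2, and both topoisomerase II genes, Top2a and Top2b. They were chosen by name, with no measured value in the rule, but with earlier results of these data known. All 10 were present among 35501 genes and passed the filter that left 11664 genes for testing. The libraries are 10 single oocytes of ICR mice, aged 6 to 8 weeks, at metaphase II, the stage at which the mature egg pauses with its chromosomes condensed on the spindle. Oocytes of both groups were taken from the ovary with an intact germinal vesicle and matured in culture for 16 h. In 5 libraries, labelled control, no agent is named. The other 5 came from oocytes exposed to TubA at 0.1 µg/mL for those 16 h. TubA commonly abbreviates tubastatin A, an inhibitor of the cytoplasmic deacetylase HDAC6, but the labels do not expand the name. They name no animal or culture, so several oocytes may come from one mouse, and each p-value measures only the spread between these libraries.

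Condensin is a ring-shaped ATPase that folds chromatin into loops and shapes mitotic and meiotic chromosomes. Smc2 and Smc4 form the core of both condensins. Condensin I adds the kleisin Ncaph and the HEAT-repeat subunits Ncapd2 and Ncapg, and condensin II adds their counterparts Ncaph2, Ncapd3 and Ncapg2. In mitotic cells condensin II works in the nucleus from prophase, while condensin I reaches the chromosomes after the nuclear envelope breaks down. Topoisomerase II passes one DNA duplex through another and so removes the tangles that condensation and segregation expose. TOP2A is the form associated with dividing cells, and TOP2B is also present in cells that no longer divide. In oocytes both condensins act on the chromosomes of the meiotic divisions.

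Values are TPM, an abundance per unit of transcript length that sums to the same total in each library, so they give relative levels and hold no sequencing depth. The number of genes at 1 TPM or more was 10521 to 11677 in control and 10714 to 11698 with TubA. All 10 oocyte markers reached 1 TPM, with summed levels of 11945 to 27183 TPM (control) and 16520 to 35972 TPM (TubA). Granulosa and cumulus markers summed to 8.84 to 14.6 TPM and 10.3 to 19.8 TPM in the same order (4 of 10 reached 1 TPM, Amh and Foxl2 listed at 0). Theca and stroma markers summed to 3.02 to 16.6 TPM and 4.36 to 13.1 TPM (2 of 7 reached 1 TPM), and blood markers to 3.74 to 33.9 TPM and 2.67 to 10.4 TPM (4 of 7, Cd52 listed at 0). Each of these 4 summed levels overlapped between the groups. Some oocyte markers varied more than their sum, as Zp2 ran from 93.1 to 3256 TPM in control and from 206 to 4518 TPM with TubA. Control replicate 1 and TubA replicate 2 were the lowest libraries in Zp1, Zp2, Zp3, Nlrp5 and Padi6. They were not the lowest pair in the other oocyte markers. Clustering of the libraries was cut at 2 sets, a number chosen and not found from the values. Each set holds libraries of both groups, and no label of the submitters names the sets. Set A holds control replicates 1 to 3 and TubA replicates 1 and 2, and set B holds control replicates 4 and 5 and TubA replicates 3 to 5.

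Smc4 was by far the most abundant of the 10 genes and Ncapd2 the least. Summed over its annotated transcripts, Smc4 averaged 1298 TPM over the 10 libraries, a level above that of 99.1% of the genes tested. Smc2, its partner in the core, followed at 177 TPM. The kleisin Ncaph stood at 138.3 TPM, Ncapg at 138.1 TPM and Ncapg2 at 90.4 TPM. Lower came Top2a at 31.2 TPM, Ncapd3 at 21.6 TPM, Ncaph2 at 17.2 TPM, Top2b at 12.4 TPM and Ncapd2 at 5.74 TPM. In this order, neighbours had separate ranges at only 2 places, between Smc4 and Smc2 and between Ncapg2 and Top2a. Smc2 exceeded Ncaph in 8 of 10 libraries, and Ncaph exceeded Ncapg in 5 of 10, so the middle of the order is not fixed by these libraries.

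**Figure D1:**
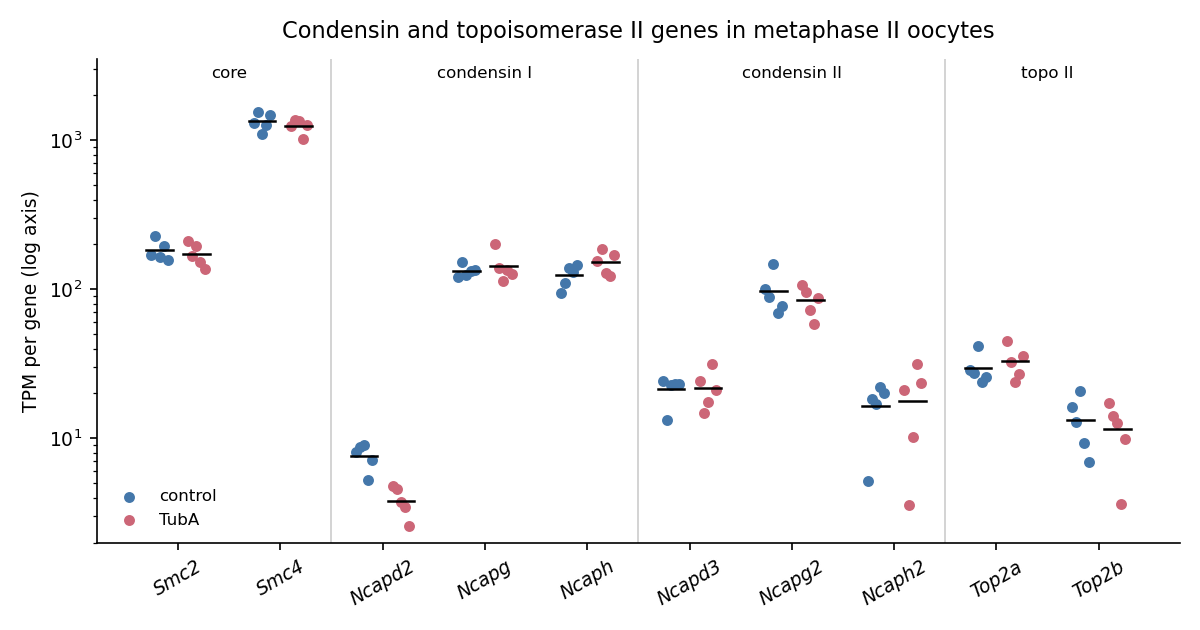
Summed TPM of each gene on a log axis, with 1 point per library, 5 control libraries in blue and 5 TubA libraries in red, and black lines for the group means. Smc4 lies between 1025 and 1551 TPM in all 10 libraries, and Ncapd2 is the gene whose red points all lie below its blue points.

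The summed levels rest on very different annotated transcripts, here called models. Of the 81 models of the 10 genes, 60 were above 0 in some library and 24 are annotated as protein coding. In Ncapg, Top2b, Top2a, Ncapd3 and Ncapd2 the model with most TPM was the principal protein-coding one, which held on average 99.6%, 91.7%, 84.1%, 65.4% and 42.7% of the gene's TPM. In Smc2, Ncaph, Ncapg2 and Ncaph2 it was a model that is not annotated as coding. In Smc4 it was a coding model, Smc4-206, whose 3′ end is tagged as incomplete. Because TPM divides by model length, reads assigned to a short model raise the sum more than the same reads assigned to a long one. Levels were therefore also computed from the coding models alone, and as a length-weighted level, in which each model counts by its length relative to the gene's longest coding model.

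Smc4-206 spans the first 8 of the 24 exons of the full-length model Smc4-201, with 1163 bases against 4316. It held 82.9% of Smc4 TPM on average, and 57.2% when weighted by length. Smc4-201 held 13.9%, and Smc4-207, a model marked for nonsense-mediated decay, held 3.13%. Smc2 showed a similar make-up. Smc2-203, a processed transcript of 643 bases, overlaps the first 5 of the 25 exons and ran from 75.0% to 87.5% of Smc2 TPM, against 6.28% for the full-length Smc2-201. The full-length models alone stood at 177.9 TPM for Smc4-201 and 10.9 TPM for Smc2-201.

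The sequences below show the 3′ point at which Smc2-203 parts from the full-length model, from which it also differs in exon 1. Its exon 5 runs on for 25 bases past position 52447751 of chromosome 4 (GRCm38), the last base of exon 5 in the full-length model. The 15 bases before that point are in lower case, and the 15 that follow in each model are in capitals.
Smc2-201, exon 5 joined to exon 6: atgaaaccaccagagATATTATCCATGATT
Smc2-203, exon 5 running on: atgaaaccaccagagGTAAGAGTACTGAGA
Of the 613 words of 31 bases in Smc2-203, 25 occur in no other model of the gene above 0.

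In Ncaph the leading models share most of their sequence. Ncaph-205, marked for nonsense-mediated decay and tagged as incomplete at its 5′ end, held 90.4% to 96.5% of Ncaph TPM. The principal model Ncaph-201 held 4.83% on average, at 3.80 to 11.8 TPM. Ncaph-205 lacks exon 2 of Ncaph-201, which has 238 bases and is not a multiple of 3. It also starts and ends within the outer exons of Ncaph-201, and has 2264 bases against 2695. The junctions around exon 2 are shown, with the 15 bases after each junction in capitals.
Ncaph-201, exon 1 joined to exon 2: gaattccgcgctcagAAACAATGAATAGCT
Ncaph-201, exon 2 joined to exon 3: ggcctcccctaacagGAATATTGATGTTTC
Ncaph-205, exon 1 joined to exon 3: gaattccgcgctcagGAATATTGATGTTTC
Of the 2234 words of 31 bases in Ncaph-205, 27 occur in no other Ncaph model above 0, against 301 of 2665 in Ncaph-201. How reads from the shared words were divided between these models was not tested.

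In the other genes the leading non-coding models sat at the 3′ end or inside the gene. Ncapg2-206, a retained-intron model of 3355 bases with 2 exons, held 78.7% of Ncapg2 TPM, and 2207 of its bases lie outside the exons of the principal model Ncapg2-201, which held 18.3%. Ncaph2-212, a retained-intron model of 644 bases, held 53.1% of Ncaph2 TPM, and the coding model Ncaph2-201 held 33.2%. Ncapd2 has 13 models, of which 10 retain an intron, and its principal model ran from 12.8% to 85.5% of the gene's TPM between libraries. Ncapd3-204, a processed transcript, held 32.9% of Ncapd3, and Top2a-205, also a processed transcript, held 14.9% of Top2a. None of the 23 models with a mean of 1 TPM or more separated the 5 TubA libraries from the 5 control libraries. Such separation is rare, at 0.454% of all genes tested on the summed level, and its share over all models was not computed.

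**Figure D2:**
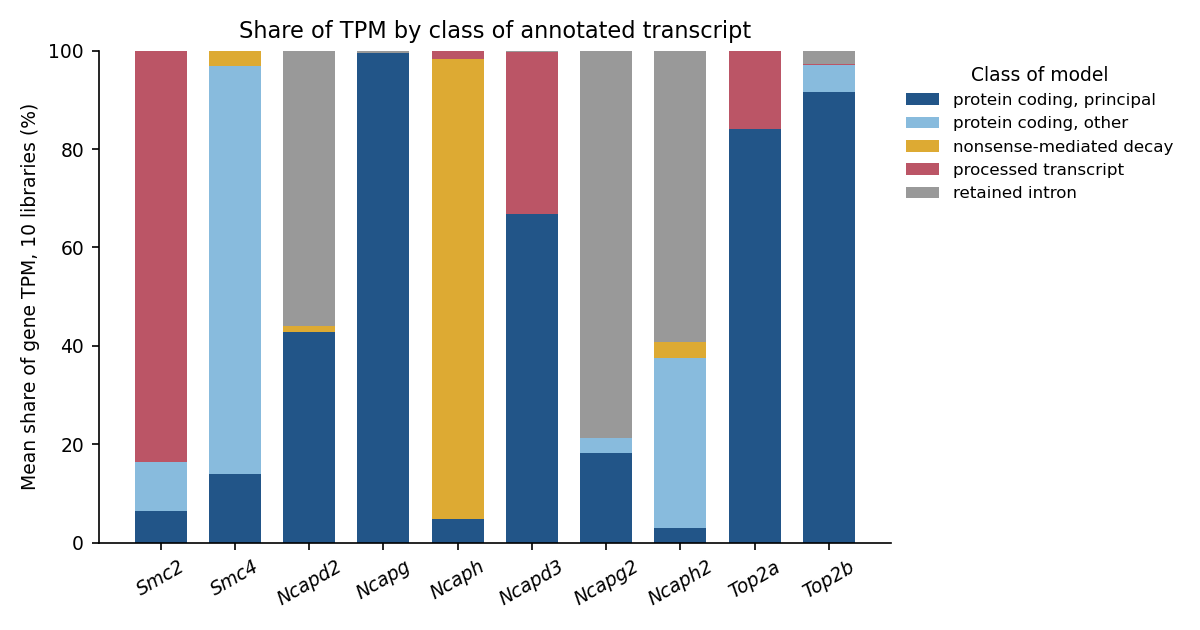
Mean share of each gene's TPM over 10 libraries, in percent, stacked by the annotated class of the transcript model. Coding models hold 99.6% of Ncapg and 96.8% of Smc4, but 16.4% of Smc2 and 4.83% of Ncaph.

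The order of the genes changed with these levels, apart from its ends. Counting coding models alone, Smc4 led at 1256 TPM and Ncapg followed at 137.6 TPM. Smc2 stood at 28.8 TPM, Top2a at 26.4 TPM, Ncapg2 at 19.2 TPM, Ncapd3 at 14.2 TPM and Top2b at 12.1 TPM. Ncaph then stood at 6.74 TPM, Ncaph2 at 6.61 TPM and Ncapd2 at 2.31 TPM. On the length-weighted level, Smc4 stood at 507 TPM, Ncapg at 138 TPM, Ncaph at 115.5 TPM and Ncapd2 at 2.76 TPM. Smc4 was first and Ncapd2 last on all 3 levels, while Ncaph went from the third place on the sum to the eighth on coding models.

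Between TubA and control, none of the 10 genes passed the test. The test was limma on log2(TPM + 1) with Benjamini-Hochberg adjustment over 11664 genes, and 0.00857% of all genes passed it, which is 1 gene. That gene, the pseudogene Rpl36-ps1, is no member and was named after its values were seen. The 10 members each had a limma adjusted p of 0.9999. At an unadjusted p under 0.05 stood 1 of the 10, Ncapd2, against 2.51% of all genes in either direction and 1.38% in its direction, lower with TubA. The members' median log2 difference was -0.07, with 4 positive and 6 negative, and that of all genes tested was 0.01. For 7 of the 10, the 95% interval of the difference lay within 1 log2 unit of TPM + 1 on either side of 0. The intervals of Ncapd2, Ncaph2 and Top2b reached further.

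**Figure D3:**
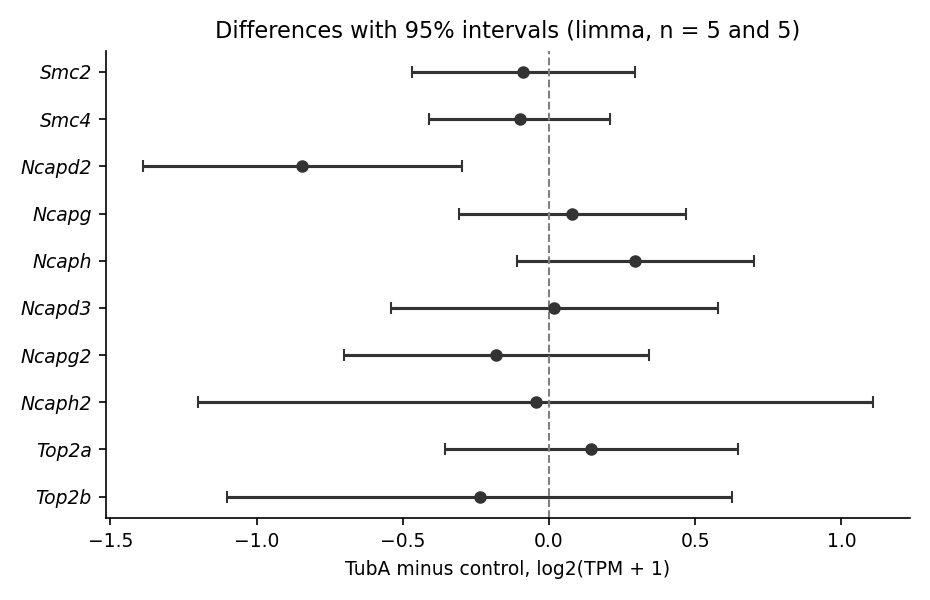
Difference in mean log2(TPM + 1), TubA minus control, for each gene, with points for the limma estimate and bars for its 95% interval (5 libraries in each group). The interval of Ncapd2, from -1.39 to -0.30, is the one that leaves out 0, and that of Ncaph2 is the widest.

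The core subunits Smc2 and Smc4 overlapped between the groups. Smc4 (chromosome 3, 69004738 to 69034623, GRCm38) had 1309, 1551, 1107, 1269 and 1484 TPM in control replicates 1 to 5. It had 1246, 1376, 1339, 1025 and 1274 TPM in TubA replicates 1 to 5. The groups overlapped over most of their range, with the lowest value in a TubA library and the highest in a control library. The means were 1344 ± 177 TPM in control and 1252 ± 137 TPM with TubA (SD, n = 5 each), a log2 difference of -0.10 with a 95% interval of -0.41 to 0.21 (limma unadjusted p = 0.497).

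Smc2 (chromosome 4, 52439243 to 52488260) had 169.1, 227.1, 165.3, 194.1 and 156.7 TPM in control. With TubA it had 211.5, 166.1, 194.1, 151.6 and 137.8 TPM. The values interleaved, and both groups spanned about the same range. The means were 182.5 ± 28.6 and 172.2 ± 30.3 TPM (log2 difference -0.09, 95% interval -0.47 to 0.29, limma unadjusted p = 0.627). Within each library Smc4 exceeded Smc2 by 5.89 to 9.47 times on the summed level and by 10.9 to 18.0 times on the length-weighted level. On coding models it exceeded Smc2 by 26.1 to 59.7 times. That level keeps the partial model Smc4-206, at a mean of 1078 TPM, and leaves out the partial model Smc2-203, at 148.5 TPM. The size of the excess on coding models therefore depends on how these partial models are annotated. The full-length models alone averaged 177.9 TPM for Smc4 and 10.9 TPM for Smc2.

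Ncapd2, a HEAT-repeat subunit of condensin I like Ncapg, was the member that differed most between the groups (chromosome 6, 125168007 to 125191701). It had 8.13, 8.70, 9.08, 5.24 and 7.13 TPM in control replicates 1 to 5. It had 4.76, 4.56, 3.76, 3.47 and 2.58 TPM in TubA replicates 1 to 5. The highest TubA library lay below the lowest control library. This was so for 1 of the 10 members and for 0.266% of all genes tested, 0.189% were apart in the other direction, with no member among them, and 0.454% were apart in either. The means were 7.66 ± 1.54 TPM in control and 3.83 ± 0.879 TPM with TubA. The log2 difference was -0.84 ± 0.25 (SE), with a 95% interval of -1.39 to -0.30 (limma unadjusted p = 0.00556, adjusted p = 0.9999), so it did not pass the test over all genes. It was -0.77 within set A and -0.75 within set B, and -0.96 to -0.74 when each library was left out in turn.

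The separation of Ncapd2 held for the sum of its models and not for other levels. Counting the coding model alone, it had 2.34, 1.49, 6.34, 1.99 and 1.86 TPM in control. TubA replicates 1 to 5 had 2.71, 1.44, 2.28, 0.444 and 2.20 TPM. These groups overlapped, with control replicate 3 far above the others and TubA replicate 4 below them, and the log2 difference was -0.39 (limma unadjusted p = 0.305). On the length-weighted level the groups also overlapped (log2 difference -0.49, limma unadjusted p = 0.128). The retained-intron models of Ncapd2 summed to 5.66, 7.21, 2.74, 3.25 and 5.26 TPM in control and to 2.05, 3.11, 1.48, 3.03 and 0.0792 TPM with TubA, again with overlap. The gene contains the small RNA gene Scarna10 on the same strand, which shares 237 bases with exons of Ncapd2 models other than the principal one.

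**Figure D4:**
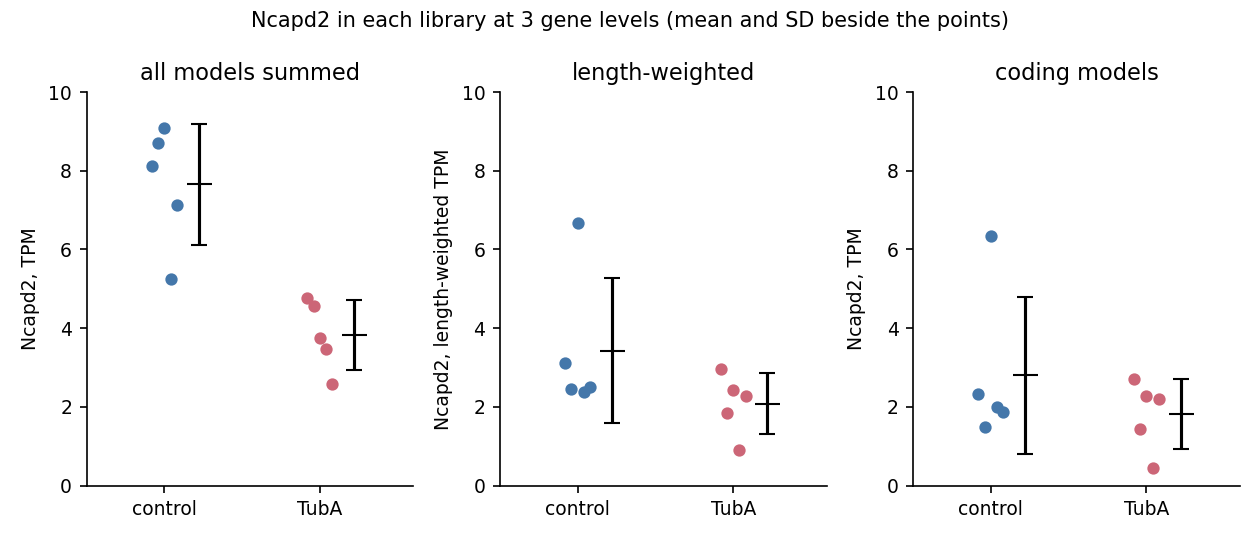
Ncapd2 in each of 5 control and 5 TubA libraries, with mean and SD beside the points, as TPM summed over all models, as a length-weighted level and for coding models alone. The groups are apart in the first panel, at 5.24 to 9.08 against 2.58 to 4.76 TPM, and overlap in the other panels.

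The other condensin I subunits had far higher levels and no such separation. Ncapg (chromosome 5, 45669919 to 45700546) had 121.7, 152.4, 124.8, 132.5 and 134.0 TPM in control. The TubA replicates had 202.0, 138.7, 113.2, 134.4 and 127.5 TPM. TubA replicate 1 stood above all other libraries and the rest overlapped. The means were 133.1 ± 11.96 and 143.1 ± 34.3 TPM (log2 difference 0.08, 95% interval -0.31 to 0.47, limma unadjusted p = 0.662), and the log2 difference was -0.05 without TubA replicate 1. Lcorl, on the opposite strand, shares 944 exonic bases with Ncapg and stood at a mean of 3.20 TPM, so reads of these bases cannot be told apart where strand is not known.

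Ncaph, the kleisin that closes the ring of condensin I (chromosome 2, 127103809 to 127133954), had 94.99, 109.8, 139.9, 130.1 and 145.4 TPM in control. The values with TubA were 154.5, 187.4, 127.6, 123.0 and 170.5 TPM. The 3 highest values were in TubA libraries and the 2 lowest in control libraries, with overlap between them. The means were 124.0 ± 21.2 and 152.6 ± 27.5 TPM (log2 difference 0.30, 95% interval -0.11 to 0.70, limma unadjusted p = 0.138). The log2 difference was 0.58 within set A and 0.01 within set B, and whether it depended on the set was not tested.

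The condensin II subunits overlapped between the groups without exception. Ncapd3 (chromosome 9, 27030175 to 27095315) had 24.2, 13.3, 22.8, 23.2 and 23.0 TPM in control. With TubA it had 24.1, 14.7, 17.6, 31.6 and 21.1 TPM. All control libraries but replicate 2 were close together, and the TubA libraries lay on both sides of them. The means were 21.3 ± 4.51 and 21.8 ± 6.50 TPM (log2 difference 0.02, 95% interval -0.54 to 0.58, limma unadjusted p = 0.945). The sign of this difference depended on single libraries, for it was -0.13 without control replicate 2.

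Ncapg2 (chromosome 12, 116405402 to 116463731) had 100.1, 88.6, 148.2, 69.3 and 77.7 TPM in control. The TubA replicates had 106.7, 96.2, 72.2, 58.1 and 87.3 TPM. Control replicate 3 was the highest and TubA replicate 4 the lowest, and the groups overlapped. The means were 96.8 ± 31 and 84.1 ± 19.3 TPM (log2 difference -0.18, 95% interval -0.70 to 0.34, limma unadjusted p = 0.466).

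Ncaph2, the kleisin of condensin II (chromosome 15, 89355719 to 89372826), was the least reproducible member. It had 5.17, 18.5, 16.9, 22.1 and 20.02 TPM in control. With TubA it had 21, 3.55, 10.3, 31.5 and 23.4 TPM. Control replicate 1 and TubA replicate 2 were low, as in the oocyte markers Zp1, Zp2 and Zp3. The control values of Ncaph2 lay within the range of its TubA values. The means were 16.5 ± 6.63 and 17.9 ± 11.1 TPM (log2 difference -0.05, 95% interval -1.20 to 1.11, limma unadjusted p = 0.934), and the log2 difference was 0.40 without TubA replicate 2 and -0.39 without control replicate 1. Of the words of 31 bases in Ncaph2, 31.7% also occur in other genes, mostly in Sco2, which overlaps it on the opposite strand and stood at a mean of 1.46 TPM.

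Topoisomerase II was represented mainly by Top2a, and neither gene separated the groups. Top2a (chromosome 11, 98992943 to 99024189) had 28.8, 27.4, 41.5, 23.95 and 25.7 TPM in control. The values with TubA were 45.0, 32.7, 24.03, 26.9 and 35.7 TPM. The groups overlapped, and the high libraries were control replicate 3 and TubA replicate 1. The means were 29.5 ± 6.95 and 32.9 ± 8.21 TPM (log2 difference 0.14, 95% interval -0.36 to 0.64, limma unadjusted p = 0.541). The log2 difference was 0.03 without TubA replicate 1 and 0.27 without control replicate 3.

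Top2b (chromosome 14, 16365179 to 16435462) had 16.3, 12.9, 20.8, 9.35 and 6.97 TPM in control. TubA replicates 1 to 5 had 17.2, 14.2, 12.6, 3.64 and 9.94 TPM. Within each group the libraries of set A were the higher ones, and the groups overlapped. The means were 13.3 ± 5.52 and 11.5 ± 5.13 TPM (log2 difference -0.24, 95% interval -1.10 to 0.63, limma unadjusted p = 0.562), and the log2 difference was 0.09 without TubA replicate 4. Top2a exceeded Top2b in 10 of 10 libraries, by 1.76 to 7.38 times on the summed level and by 1.45 to 5.73 times on coding models. The log2 ratio of Top2b to Top2a was -1.23 ± 0.416 in control and -1.65 ± 0.766 with TubA, with overlap, and TubA replicate 4 held the lowest value at -2.88. Rarb, on the opposite strand, shares 1793 exonic bases with the principal Top2b model and stood at a mean of 0.394 TPM, and 12.6% of the 31-base words of Top2b occur in other genes.

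Transcripts specific to condensin I outweighed those specific to condensin II in all 10 libraries. The summed level of Ncapd2, Ncapg and Ncaph was 264.8 ± 23.4 TPM in control and 299.6 ± 48.2 TPM with TubA. That of Ncapd3, Ncapg2 and Ncaph2 was 134.6 ± 30.3 and 123.9 ± 19.4 TPM. The ratio of these sums lay between 1.46 and 2.89 times. In control replicates 1 to 5 its log2 value was 0.80, 1.17, 0.54, 1.23 and 1.25, and in TubA replicates 1 to 5 it was 1.25, 1.53, 1.29, 1.11 and 1.19. Control replicates 1 and 3 were the lowest and the rest of the groups overlapped, with means of 0.996 ± 0.313 in control and 1.27 ± 0.159 with TubA. No test was made of this ratio, as its members were chosen with earlier results known.

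The subunits did not share in this balance alike. Ncaph exceeded Ncaph2 in 10 of 10 libraries (mean log2 ratio 3.05 ± 0.68 in control and 3.41 ± 1.42 with TubA). Ncapg exceeded Ncapg2 in 9 of 10 (0.51 ± 0.49 and 0.77 ± 0.29). The counterparts Ncapd2 and Ncapd3 stood the other way, for Ncapd2 was below Ncapd3 in 10 of 10 libraries (-1.47 ± 0.56 and -2.50 ± 0.61). Ncapd2 made up 1.96% to 3.62% of the condensin I sum in control and 0.858% to 1.54% with TubA, ranges that do not overlap. On coding models they overlapped, at 0.941% to 4.61% and 0.321% to 1.92%. As Ncapg and Ncaph make up nearly all of the condensin I sum, the separate ranges restate the separation of Ncapd2 itself.

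Counting coding models alone, the ratio of condensin I to condensin II was 2.28 to 5.22 times, and Ncapg supplied 90.4% to 96.9% of the condensin I sum. Ncaph exceeded Ncaph2 in 5 of 10 libraries on that level, so the balance of the kleisins depends on whether non-coding models such as Ncaph-205 are counted. On the length-weighted level the ratio was 1.75 to 3.44 times. The direction of the sums was the same on all 3 levels, and the size was not. The mean of the 3 counterpart log2 ratios, which weights the pairs equally, was above 0 in 9 of 10 libraries on the summed level (mean 0.63). On coding models it was above 0 in 7 of 10 (mean 0.12 ± 0.57, SD over 10 libraries), with TubA replicate 4 lowest at -1.22.

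**Figure D5:**
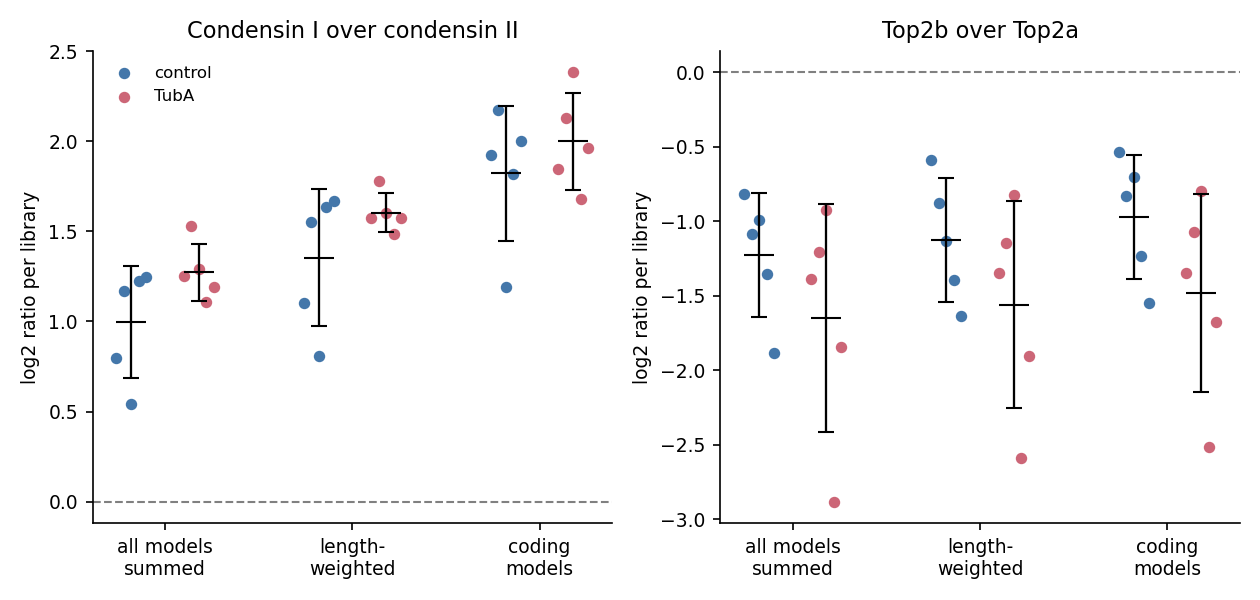
Log2 ratio of the summed specific subunits of condensin I over condensin II (left) and of Top2b over Top2a (right) in each library, with mean and SD for 5 control and 5 TubA libraries, on 3 gene levels. The left ratios are above 0 and the right ones below 0 in all 10 libraries on each level, and the groups overlap throughout.

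Top2b and Ncapg2 had separate ranges between the library sets and overlapped between the groups. In Top2b the libraries of set A had 12.9 to 20.8 TPM, and those of set B had 3.64 to 12.6 TPM. In Ncapg2 they had 88.6 to 148.2 TPM and 58.1 to 87.3 TPM. These 2 of 10 members had no overlap between the sets, against 5.14% of all genes, and as the sets were found from the same values this is a description without a test. On coding models and on the length-weighted level Top2b again had separate ranges, while Ncapg2 overlapped.

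The promoters of the members differ in motifs that recur at genes active in mitosis, the CCAAT box and the cell cycle element TTTGAA. RefSeq promoter sequences (GRCm38.p6, 250 bases before to 50 after the start) matched 9 of the 10 members. Both strands were searched, so ATTGG and TTCAAA count as well, and no match of one overlapped the other in the windows shown. Only these exact sequences were searched, and variant forms of either motif were not. Of 32851 promoters of this length, 37.4% hold CCAAT, 17.9% hold TTTGAA and 6.95% hold both. Of the 9 members, 5 hold CCAAT, 5 hold TTTGAA and 4 hold both (Smc2, Ncapd2, Ncapg and Top2a), while Ncaph, Ncapd3 and Ncaph2 hold neither at their main start. The windows of the counterparts Ncapd2 and Ncapd3 and of Top2a and Top2b are printed. These pairs differed in the same direction in all 10 libraries on all 3 gene levels. Ncaph also exceeded Ncaph2 in all 10 libraries on the summed and length-weighted levels, and in 5 of 10 on coding models. Both of those windows hold neither motif, and whether motifs go with levels was not tested. Capitals mark the motifs.
Ncapd2 promoter, chr6:125191537-125191836, minus strand: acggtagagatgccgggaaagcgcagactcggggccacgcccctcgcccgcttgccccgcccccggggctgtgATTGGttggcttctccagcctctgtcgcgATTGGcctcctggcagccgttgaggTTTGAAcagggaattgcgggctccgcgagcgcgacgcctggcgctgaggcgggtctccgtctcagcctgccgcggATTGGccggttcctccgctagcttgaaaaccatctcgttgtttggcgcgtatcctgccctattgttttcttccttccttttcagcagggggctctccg
Ncapd3 promoter, chr9:27029915-27030214, plus strand: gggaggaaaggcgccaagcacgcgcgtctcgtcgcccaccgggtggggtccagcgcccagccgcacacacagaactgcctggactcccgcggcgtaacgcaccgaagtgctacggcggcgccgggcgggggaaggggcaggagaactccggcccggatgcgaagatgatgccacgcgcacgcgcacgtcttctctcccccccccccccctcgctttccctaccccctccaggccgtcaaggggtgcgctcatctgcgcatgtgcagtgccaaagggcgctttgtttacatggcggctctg
Top2a promoter, chr11:99024140-99024439, minus strand: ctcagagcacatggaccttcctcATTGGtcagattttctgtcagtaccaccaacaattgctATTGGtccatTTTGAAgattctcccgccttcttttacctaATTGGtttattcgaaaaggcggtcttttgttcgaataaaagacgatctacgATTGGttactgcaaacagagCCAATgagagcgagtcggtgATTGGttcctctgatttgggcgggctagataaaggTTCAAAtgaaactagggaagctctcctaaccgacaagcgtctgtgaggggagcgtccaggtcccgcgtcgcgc
Top2b promoter, chr14:16364956-16365255, plus strand: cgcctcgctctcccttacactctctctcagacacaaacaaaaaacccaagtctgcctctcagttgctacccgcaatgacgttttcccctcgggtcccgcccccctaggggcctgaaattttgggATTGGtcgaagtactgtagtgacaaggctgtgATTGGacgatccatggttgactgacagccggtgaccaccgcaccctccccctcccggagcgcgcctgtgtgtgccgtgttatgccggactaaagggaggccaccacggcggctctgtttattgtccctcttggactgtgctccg
Top2a holds 6 CCAAT and 2 TTTGAA matches, Top2b holds 2 and 0, Ncapd2 holds 3 and 1, and Ncapd3 holds none. A match is a run of letters in these windows, and binding was not measured here.

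Genes that work with condensin and topoisomerase II also gave no call. Of 30 regulators of condensation and proteins of the chromosome periphery, all 30 were tested and 0 passed in either direction (limma, 0 at an unadjusted p under 0.05), with 17 positive and 13 negative differences and a median log2 difference of 0.04. The 4 most abundant were H1foo, the linker histone of oocytes, Ccnb1, encoding cyclin B1, Birc5, encoding the chromosomal passenger survivin, and Ppp2r1a, a scaffold subunit of the phosphatase PP2A. H1foo averaged 14869 TPM in control (SD 2606) and 13734 TPM with TubA (SD 1965). Ccnb1 averaged 1609 and 1689 TPM (SD 186 and 212), Birc5 1301 and 1449 TPM (SD 515 and 427), and Ppp2r1a 405 and 429 TPM (SD 116 and 73.5). These means differ by less than the SD of the groups.

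Of 21 genes of cohesin, its regulators, SMC5/6 and the SMC protein Smchd1, 20 were tested and 0 passed (limma, 0 at an unadjusted p under 0.05), with 9 positive and 11 negative differences and a median of -0.04. Nsmce4a and Nsmce2, subunits of the SMC5/6 complex, averaged 690 and 818 TPM (SD 271 and 147) and 137 and 208 TPM (SD 29.4 and 130). The cohesin release factor gene Wapl averaged 97.4 and 103 TPM (SD 13.5 and 22.6) and Smc6 88 and 78.2 TPM (SD 14.7 and 10.9). At 88 TPM in control, Smc6 stood well below Smc4 and Smc2 of condensin on the summed level. Smc6 was not described on the other levels, where Smc2 averaged 28.8 TPM (coding models) and 34.1 TPM (length-weighted).

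Of 17 genes for other topoisomerases and partners of topoisomerase II, 14 were tested and 0 passed (limma, 1 at an unadjusted p under 0.05, lower with TubA), with 8 positive and 6 negative differences and a median of 0.11. Top1, the type I topoisomerase, averaged 242 and 208 TPM (SD 34.6 and 64.8). Pias4, a SUMO ligase gene, averaged 217 and 193 TPM (SD 22.0 and 40.5) and Tdp2, which removes trapped topoisomerase II from DNA, 73.1 and 74.1 TPM (SD 16.0 and 29.0). Top1 had a higher mean than Top2a and Top2b together in each group, on the summed level. The gene at an unadjusted p under 0.05 was Rad54l2, at 2.33 and 1.11 TPM (SD 1.01 and 0.407, limma unadjusted p = 0.0489), named after its values were seen.

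The genes whose profile across the 10 libraries lay nearest to that of Smc4 were Nsrp1, Polr2c and Pacsin1, at root-mean-square distances of 0.0728, 0.0824 and 0.0876 in centred log2(TPM + 1), where the median of 5651 candidates was 0.464. Nearest to Top2a were Glce, Kif11 and Mastl at 0.0588, 0.121 and 0.122, where the median of 4291 candidates was 0.555. Candidates had a mean of at least 10 TPM and varied at least as much as the gene itself. Kif11 encodes a spindle motor and Mastl a kinase that protects mitotic phosphorylation, but both lay farther from Top2a than Glce did. Whether the genes near Smc4 or Top2a share a function with them was not tested. The distances given are the smallest among the candidates, so they fall below the median by selection. They describe likeness over 10 libraries that share 2 sets.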

How the data were processed

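Expression was measured in 10 mouse oocyte libraries made with Smart-seq2, a full-length protocol. The deposited values are TPM per Ensembl transcript, a unit read from the values, which sum to 1000000 in each library. Bowtie 0.12.2 and build mm10 are named per the submitters' processing notes. The abundance program, its annotation and the use of strand are not given in these sources. TPM holds no depth, so the spread between libraries sets the precision.

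Transcripts were summed to genes with GENCODE M21 (GRCm38, the assembly of mm10). Of the transcripts, 113492 matched and 1778, holding 0.531% to 0.753% of TPM, did not and were left out. limma 3.58.1 (R 4.3.3) was run on log2(TPM + 1), without covariates, with trend and robust settings on, for the 11664 genes averaging 1 TPM or more. Calls used a Benjamini-Hochberg adjusted p of 0.05. Fold changes on this scale understate the change of low genes. The fit was tested on simulated data. Ratios between genes were described per library and not tested. The members, gene lists and named genes were chosen with earlier results of these data known. All members are named, and of each list the genes past the threshold or else the 4 most abundant, of which 1 is not reported here. Library sets came from complete-linkage clustering of library correlations, cut at 2 sets. Word sharing counts runs of 31 bases. Tables and figures used Python 3.11.15, pandas 2.3.3, numpy 2.4.6 and matplotlib 3.10.9. Other pseudocounts, filters, scalings, weights, transcript sums, a replicate block, library sets and left-out libraries were tried. The length-weighted level was added after seeing the data.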

Additional observations from a re-analysis of the deposited data

Results flagged for a closer look

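In 3 places a library stood apart from the other 4 of its group by Dixon's gap test at the 95% level, which flags about 1 group in 20 by chance, among 32 groups of 5 values tested (levels of the members and ratios between them). TubA replicate 1 had 202.0 TPM of Ncapg, where the other TubA libraries had 113.2 to 138.7 TPM. Control replicate 2 had 13.29 TPM of Ncapd3, where the other control libraries had 22.8 to 24.2 TPM. Control replicate 3 had 41.47 TPM of Top2a, where the other control libraries had 23.95 to 28.84 TPM.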

How the results depend on the processing

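The precision is set by the spread between 5 libraries a group, since TPM keeps no depth. Over all genes, 1 passed in 19 of 24 alternatives, including each left-out library. It was 0 when genes under a mean of 5 TPM were left out (limma, 166 genes at an unadjusted p under 0.05), 0 in set B alone (208), 0 on coding models (242) and 12 in set A alone (5 higher, 7 lower). With the replicate block it was 0 (limma, 313 at an unadjusted p under 0.05). The gene of the main fit, Rpl36-ps1, had 0 TPM in all control libraries and 3.93 to 8.20 TPM with TubA. Its mean was under 5 TPM, so that filter left it out. The coding level counts only models annotated as protein coding, so a pseudogene without such a model was not tested there. The replicate numbers were not taken as pairs, since same-numbered libraries correlated at over 0.1 in 2 of 5 pairs (range -0.31 to 0.48) and 2 of 5 control libraries correlated best with their own number. No member passed in any of 24 alternatives (lowest limma adjusted p = 0.91, Ncapd2 with library weights). Of 240 member values 17 changed sign. Smc2 had a log2 difference of 0.0175 in set A. Ncapg had -0.0946 in set B. Ncapd3 had -0.0310 with the set as a term, -0.0415 in set A and -0.0206 in set B. With library weights Ncapg2 had 0.0133 and Top2b 0.0585. With each library left out in turn, the log2 difference ran from -0.0504 to 0.157 for Ncapg, from -0.13 to 0.14 for Ncapd3, from -0.39 to 0.40 for Ncaph2 and from -0.425 to 0.0866 for Top2b. Ncapd2 kept its sign in all 24, from -0.99 to -0.39. The mean log2 ratio of condensin I to condensin II was 1.13 (1.0909 to 1.2005 with a library left out), 0.63 as the mean of the 3 counterpart ratios (0.12 on coding models), 1.91 on coding models and 1.48 on the length-weighted level. That of Top2b to Top2a moved by less than the SD of the libraries in its 12 alternatives (-1.51 to -1.23). Apart from the counts of 0 with the filter at 5 TPM and on coding models, the cause of these shifts was not tested.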
